A study of Homo sapiens with 12 samples.

Results

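SOX17-only distal regions outside repeats were 5957 of the 17507 SOX17 peaks (34.0%) that the authors deposited for TCam-2, a seminoma-like human germ cell tumour line. They were chosen from the peak calls themselves. Of the 17507 peaks, 12059 (68.9%) had no SOX2 peak within 5000 bp in 2102EP, an embryonal carcinoma-like line. Of these, 11240 (64.2% of all SOX17 peaks) were annotated as intergenic or intronic. Of those, 10995 (62.8% of all SOX17 peaks) lay within 500000 bp of a transcription start site (TSS). After removal of peaks inside a named repeat, 5957 remained. Since peak presence chose the regions, their scores and the absence of SOX2 are descriptions and carry no test. Sequence and location within these limits were not used in the choice and were tested.

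Binding was measured in both lines with ChIP-seq, the sequencing of DNA that is immunoprecipitated with a protein. The 12 libraries form 4 groups of 3: anti-SOX17 in TCam-2, anti-SOX2 in 2102EP, and 2% input of each line with no antibody. Both lines were fixed with a protein crosslinker and then formaldehyde, and their chromatin was digested enzymatically. The ChIP replicates are described as biological replicates of a single line per factor. The peaks come as 1 merged list per factor, with no value for a single library, so sequencing depth is unknown and no value below has a replicate error. Tests and intervals count regions as if they were independent, and cover counting error only. Antibody and cell line changed together, so the factor and the line cannot be told apart.

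SOX17 is an SRY-related transcription factor of the SOXF group. It is needed for human primordial germ cell fate and is a marker of seminoma, whereas embryonal carcinoma expresses SOX2 in its place. Both proteins bind the core letters CATTGT or CTTTGT through an HMG box, and both can bind next to the POU factor OCT4. On DNA, SOX2 and OCT4 favour a composite site in which 1 base separates the SOX part from the OCT part (canonical), and SOX17 and OCT4 favour one without that base (compressed). Distal regions bound by such factors often lie in introns or between genes and can act as enhancers.

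To show what a compressed site in these regions looks like, 6 regions with one are printed first, in hg38. They are chr17:47893810-47893913 (plus strand) nearest to LOC102724532, chr10:28690445-28690546 (plus) nearest to BAMBI, chr7:9348178-9348280 (plus) nearest to PER4, chr10:104337000-104337113 (minus) nearest to ITPRIP, chr6:127173249-127173350 (plus) nearest to RSPO3 and chr9:107654907-107655010 (minus) nearest to KLF4. The LOC102724532, ITPRIP, BAMBI and PER4 regions are among the highest-scoring with a compressed site, and RSPO3 and KLF4 are genes of the signalling and germ cell lists used below. The last sequence, chr1:165249161-165249273 (plus) nearest to LMX1A, holds a canonical site for comparison. Capitals mark the composite site alone: the SOX part, in the canonical site 1 further base, and the 8 bases of the OCT part.
LOC102724532: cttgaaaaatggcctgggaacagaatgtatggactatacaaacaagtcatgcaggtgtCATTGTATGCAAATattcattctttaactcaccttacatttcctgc
BAMBI: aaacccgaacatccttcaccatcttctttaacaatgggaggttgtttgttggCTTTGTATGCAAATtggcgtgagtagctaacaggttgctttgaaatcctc
PER4: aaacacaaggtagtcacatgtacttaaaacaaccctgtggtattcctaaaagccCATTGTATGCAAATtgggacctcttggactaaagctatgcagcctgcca
ITPRIP: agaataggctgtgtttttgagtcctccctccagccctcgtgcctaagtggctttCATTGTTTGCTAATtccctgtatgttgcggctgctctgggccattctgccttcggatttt
RSPO3: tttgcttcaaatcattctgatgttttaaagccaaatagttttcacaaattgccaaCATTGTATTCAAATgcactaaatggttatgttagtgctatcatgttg
KLF4: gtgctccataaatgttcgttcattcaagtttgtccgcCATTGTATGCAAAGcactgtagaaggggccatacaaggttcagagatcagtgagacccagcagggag
LMX1A: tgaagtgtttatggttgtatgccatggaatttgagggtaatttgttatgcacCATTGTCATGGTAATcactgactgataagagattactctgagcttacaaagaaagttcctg
The OCT part matched ATGCAAAT or ATGCTAAT with no mismatch in the LOC102724532, BAMBI and PER4 regions and with 1 mismatch in the other 4.

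Compressed sites, a SOX site followed at once by an OCT site with at most 1 mismatch, occurred within 100 bp of the centre in 132 of the 5957 regions (2.22%, 95% Wilson interval 1.87 to 2.62%). Canonical sites occurred in 6 (0.101%, 0.0462 to 0.22%). In windows of the same length 2000 bp to either side, compressed sites occurred in 4 of 11914 (0.0336%) and canonical sites in 8 (0.0671%), a ratio of 66.0 for the compressed and 1.5 for the canonical form. Among 35116 RefSeq promoters of 300 bp, 7 (0.0199%) held a compressed and 15 (0.0427%) a canonical site.

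The regions were compared with 2188 SOX17 peaks that overlapped a SOX2 peak and met the same location and repeat rules, called shared distal regions here. Compressed sites occurred in 3 of those (0.137%), an odds ratio of 16.5 for SOX17-only over shared (95% Woolf interval 5.25 to 51.9; Fisher's exact test, two-sided here and below, adjusted p = 1.5e-13). Canonical sites went the other way, with 30 of 2188 shared regions (1.37%) and an odds ratio of 0.0725 (0.0301 to 0.174; Fisher's exact test, adjusted p = 1.62e-11). The second comparison took 6473 SOX2 peaks with no SOX17 peak within 5000 bp under the same rules, called SOX2-only distal regions. Of these, 1 held a compressed site (0.0154%; odds ratio 147, 20.5 to 1050; Fisher's exact test, adjusted p = 2.57e-40) and 116 a canonical site (1.79%; odds ratio 0.0553, 0.0243 to 0.126; Fisher's exact test, adjusted p = 3.63e-25). Each comparison held 23 tests, 12 of single motifs and 11 of spacings from 0 to 10 bases, and p-values were adjusted over all 23. In all, 6 of the 23 tests (26.1%) passed against the shared and 14 (60.9%) against the SOX2-only regions. The same opposite preference is present in the full peak lists, from which these regions were drawn, so it is not independent evidence. Compressed sites were more frequent in the 5038 SOX17-only distal regions inside repeats, at 5.2%, and stood at 2.77% of all SOX17 peaks, so they are not particular to regions outside repeats.

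At spacings of 2 to 10 bases, the share of SOX17-only distal regions with a composite site ran from 0.0504 to 0.201%. The ratio over flanking windows ran from 1.2 at 3 bases to 24 at 4 bases, where each spacing had only 1 to 6 flank windows with a site. An excess over flanks was thus not confined to the compressed spacing. None of these 9 spacings passed against the shared regions. Against SOX2-only regions a spacing of 7 bases passed, with 5 of 5957 against 16 of 6473 regions (odds ratio 0.339, 0.124 to 0.926; Fisher's exact test, adjusted p = 0.0479), a call that was lost under 6 of the alternatives. Within the SOX17-only regions the 132 with the compressed spacing compare with at most 12 at any other spacing, a count reached at 4 and 5 bases.

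**Figure D1:**
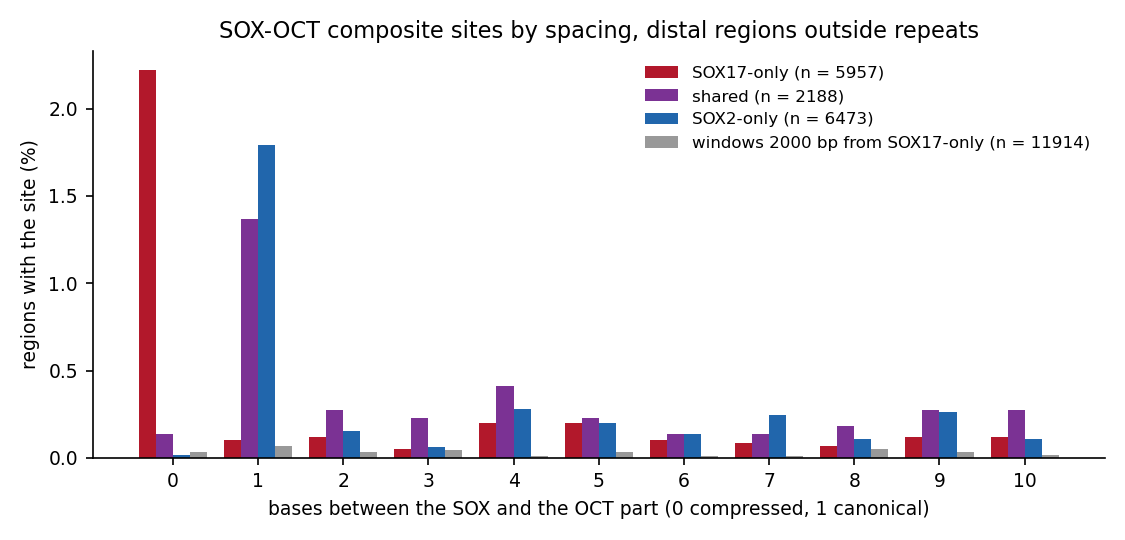
Share of regions (%, y axis) holding a SOX-OCT composite site at each number of bases between the parts (x axis, 0 to 10) in SOX17-only, shared and SOX2-only distal regions outside repeats, each region counted within 100 bp of its centre. SOX17-only regions peak at spacing 0 with 2.22%, and shared and SOX2-only regions at spacing 1 with 1.37 and 1.79%.

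Allowing more mismatches in the OCT part raised the counts, kept the direction and narrowed the contrast. With at most 2 mismatches, an alternative chosen after seeing the data, 479 SOX17-only regions (8.04%) held a compressed site, against 1.37% of shared, 0.324% of SOX2-only regions and 0.201% of flanking windows. The odds ratio was then 6.29 against shared and 26.9 against SOX2-only regions. The canonical form with at most 2 mismatches occurred in 0.789% of SOX17-only, 5.9% of shared and 6.89% of SOX2-only regions. With at most 3 mismatches, 1008 SOX17-only regions (16.9%) held a compressed site, beside 6.03% of shared regions, 2.92% of SOX2-only regions and 1.31% of flanking windows. With no mismatch, 17 SOX17-only regions held one, and none of the shared or SOX2-only regions did.

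Within the 132 compressed sites, the SOX part was CATTGT in 78 and CTTTGT in 54. The commonest OCT part was ATGCAAAT, in 14 sites. The middle of the site lay at a median of 10.5 bp from the peak centre, and within 25 bp in 120 of 132 (90.9%). The sites lay mostly on the side of higher coordinates: 85.7% of the 49 sites on the plus strand, with a median of 10.5 bp, and 74.7% of the 83 on the minus strand, with a median of 6.5 bp. CATTGT sites of the same regions were shifted to that side on both strands as well, with medians of 5.5 and 8.5 bp, and those of the shared regions by 6.5 and 8.5 bp. In the SOX2-only regions these medians were 1.5 and 4.5 bp. The cause of the shift was not tested; the deposited centres are thus displaced by a few bases from the sites, in the same direction whichever strand the site is on.

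**Figure D2:**
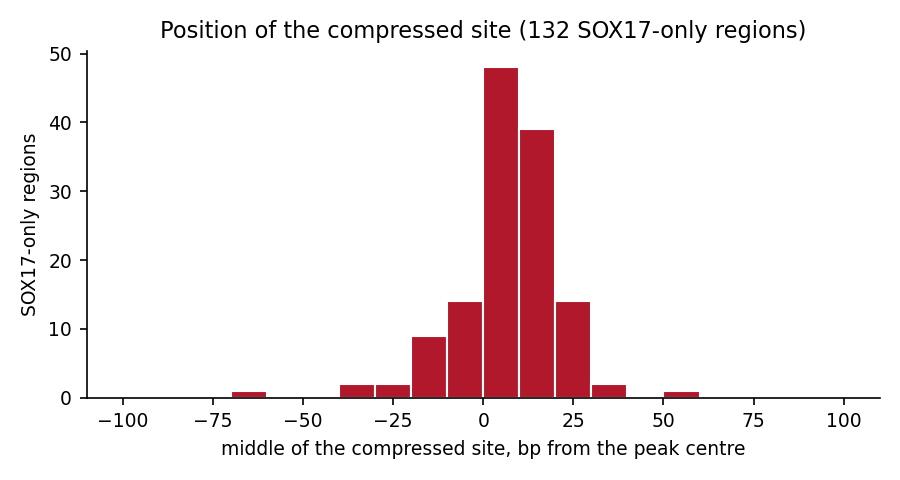
Number of SOX17-only distal regions (y axis) by the position of the middle of the compressed site in bp from the peak centre (x axis, 10 bp bins, positive towards higher coordinates), for 132 regions. Most sites lie within 25 bp of the centre, and more lie on the positive than on the negative side.

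The bases just after the SOX core were also counted, whether or not a full OCT site follows. CATTGTAT, which holds the first bases of a compressed OCT part, was found in 557 of the 5957 regions (9.35%), against 2.19% of shared regions, 0.68% of SOX2-only regions and 0.823% of flanking windows. CATTGTTA, in which a canonical site can start, was found in 2.2% of SOX17-only, 4.98% of shared and 3.28% of SOX2-only regions. CATTGTTT was about as frequent in SOX17-only as in shared regions, at 9.3 and 8.18%, and CATTGTTC likewise, at 6.98 and 6.9%. In SOX2-only regions they were rarer, at 3.97 and 2.98%. CATTGT sites as such were also fewer in SOX2-only regions, with 990 on the plus and 1020 on the minus strand. SOX17-only regions had 1605 and 1511. The 8 bases TTGTATGC, in which SOX and OCT letters join, occurred in 6.61% of SOX17-only regions and in 0.378% of flanking windows, a ratio of 17.5. These strings were picked after their counts were seen and carry no test.

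The following 4 high-scoring regions have a SOX site inside the peak and no compressed site by the rule, and are printed to show the bases that follow. They are chr10:133300880-133300982 (plus strand) near ZNF511, chr20:56703425-56703525 (plus) near TFAP2C, chr9:882521-882624 (minus) near DMRT1 and chr4:54668498-54668602 (minus) near KIT, in hg38. Capitals mark the SOX cores.
ZNF511: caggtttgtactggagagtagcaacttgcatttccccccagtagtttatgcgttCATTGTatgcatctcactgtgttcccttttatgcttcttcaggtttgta
TFAP2C: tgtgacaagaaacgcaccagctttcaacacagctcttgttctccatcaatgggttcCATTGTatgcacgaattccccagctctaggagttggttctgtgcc
DMRT1: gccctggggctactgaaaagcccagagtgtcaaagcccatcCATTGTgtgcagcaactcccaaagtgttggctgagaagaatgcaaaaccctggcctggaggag
KIT: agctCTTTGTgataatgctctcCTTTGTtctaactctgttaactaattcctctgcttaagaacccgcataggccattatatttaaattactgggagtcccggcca
The 8 bases after the SOX core were ATGCATCT near ZNF511, with 2 mismatches to the nearest OCT form. They were ATGCACGA near TFAP2C with 3 mismatches and GTGCAGCA near DMRT1 with 4. Both SOX cores near KIT were followed by 8 bases with 7 mismatches.

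Single motifs were counted on both strands within 100 bp of the centre. Promoter sequences are 300 bp long, longer than these windows, so promoter shares here and below are not at equal length. A SOX core was present in 3836 regions (64.4%), against 25.4% of flanking windows and 24.5% of promoters. It was less frequent than in shared regions (70.0%; odds ratio 0.774, 0.697 to 0.861; Fisher's exact test, adjusted p = 1.18e-05) and more frequent than in SOX2-only regions (60.5%; odds ratio 1.18, 1.1 to 1.27; adjusted p = 1.71e-05). Of the SOX17-only regions, 2694 (45.2%) held 1 core, 1142 (19.2%) held 2 or more, and 2121 (35.6%) held none of these letters. A core lay within 25 bp of the centre in 2595 regions (43.6%).

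OCT sites here are ATGCAAAT or ATGCTAAT with no mismatch, alone or inside a composite site. They were present in 355 regions (5.96%), against 2.16% of flanking windows and 2.4% of promoters. They were less frequent than in shared regions (12.0%; odds ratio 0.466, 0.394 to 0.551; Fisher's exact test, adjusted p = 7.96e-17) and than in SOX2-only regions (11.9%; odds ratio 0.471, 0.413 to 0.537; adjusted p = 3.59e-30). The low share is not a trait of SOX17-only peaks in general: OCT sites were present in 13.9% of SOX17-only distal regions inside repeats and in 11.5% of all SOX17 peaks. The order held in each of 3 bands of GC content against the shared regions: 9.11 against 17.7% where GC was at most 41.3%, 6.12 against 10.8% in the middle band and 3.58 against 8.77% above 46.8%.

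The AP-2 site GCCNNNGGC, bound by TFAP2C and its relatives, was present in 806 regions (13.5%), against 3.41% of flanking windows and 23.2% of the GC-rich promoters. It was more than 2 times as frequent as in SOX2-only regions (6.12%; odds ratio 2.4, 2.12 to 2.72; Fisher's exact test, adjusted p = 2.04e-43). Against shared regions, with 11.3%, the odds ratio was 1.23 (1.06 to 1.43; exact test, adjusted p = 0.0336), and it was 1.08 in the higher-scoring part of the list, where the call was lost (adjusted p = 0.812). GC content moved with this motif and differed between the classes: the median GC was 45.3% in SOX17-only, 44.8% in shared and 43.3% in SOX2-only regions. Within the bands of GC content named above, AP-2 sites were present in 5.42, 12.0 and 20.6% of SOX17-only and in 2.31, 5.77 and 12.1% of SOX2-only regions, so the share was higher in SOX17-only regions in each band. In shared regions the shares were 6.07, 10.0 and 16.5%, higher than in SOX17-only regions in the lowest band and lower in the other 2.

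TEAD sites, GGAATG, the letters bound by the DNA-binding partners of YAP, occurred in 1345 regions (22.6%), against 11.2% of flanking windows and 14% of promoters. Their share passed against SOX2-only regions (15.9%; odds ratio 1.54, 1.41 to 1.69; Fisher's exact test, adjusted p = 1.94e-20). Against shared regions, with 22.0%, the odds ratio of 1.03 had an interval from 0.917 to 1.16. The KLF site GGGTGTG followed the same order, with 5.42% in SOX17-only and 2.81% in SOX2-only regions (odds ratio 1.98, 1.65 to 2.38; exact test, adjusted p = 5.29e-13), beside 3.81% in flanks and 7.56% in promoters. KLF sites also rose with GC content. From the lowest to the highest GC band they were present in 2.26, 5.29 and 7.79% of SOX17-only regions. In SOX2-only regions the shares were 1.53, 2.4 and 5.19%. The forkhead site TGTTTAC was at 5.54 against 4.56% (odds ratio 1.23, 1.05 to 1.44; exact test, adjusted p = 0.0262), beside 3.0% in flanks and 3.42% in promoters, and its call was lost under 3 of the alternatives.

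Other motifs were rarer in SOX17-only than in SOX2-only regions. The AP-1 site TGANTCA, bound by FOS and JUN proteins, was at 7.69 against 10.9% (odds ratio 0.678; Fisher's exact test, adjusted p = 1.34e-09) and the homeobox core TAATTA at 5.46 against 9.02% (odds ratio 0.582; adjusted p = 7.39e-14). The GATA site AGATAA was at 10.9 against 13.3% (exact test, adjusted p = 0.000138) and the orphan receptor site AAGGTCA, bound by ESRRB, at 2.79 against 3.94% (adjusted p = 0.000867). The ESRRB call was lost above the median score of each list (odds ratio 0.902, exact test, adjusted p = 0.652). GATA, homeobox and ESRRB letters were also below their own flanking windows, which held them in 13.1, 7.41 and 3.77%, and AP-1 was above, at 6.5% in flanks. The flanks were not filtered for repeats and had a median GC of 43.3%, against 45.3% in the regions. SOX17-only distal regions inside repeats held GATA, homeobox and ESRRB letters in 14.2, 7.76 and 4.74%. What repeats and GC add to the difference from flanks was not tested. The PRDM1 site AAAGTGAAA was present in 34 regions (0.571%), against 0.927% of SOX2-only regions (odds ratio 0.614; exact test, adjusted p = 0.0401) and 0.688% of flanks, a call lost with a window of 50 bp and within 100000 bp of the TSS (adjusted p of 0.431 and 0.0984). The E-box CAGCTG was at 11.3 and 11.2%, with an odds ratio of 1.01 (0.906 to 1.13). In promoters these 6 motifs ran from 0.644% for the PRDM1 site to 17.9% for the E-box. Against shared regions, homeobox sites passed (6.99%; odds ratio 0.768, 0.629 to 0.936; exact test, adjusted p = 0.0406) and GATA, KLF, ESRRB, forkhead, AP-1, PRDM1 and E-box sites did not. The homeobox call was lost above the median score (adjusted p of 0.159), without 12p and chromosome 20 (0.0709) and within 100000 bp of the TSS (0.0576; exact tests).

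**Figure D3:**
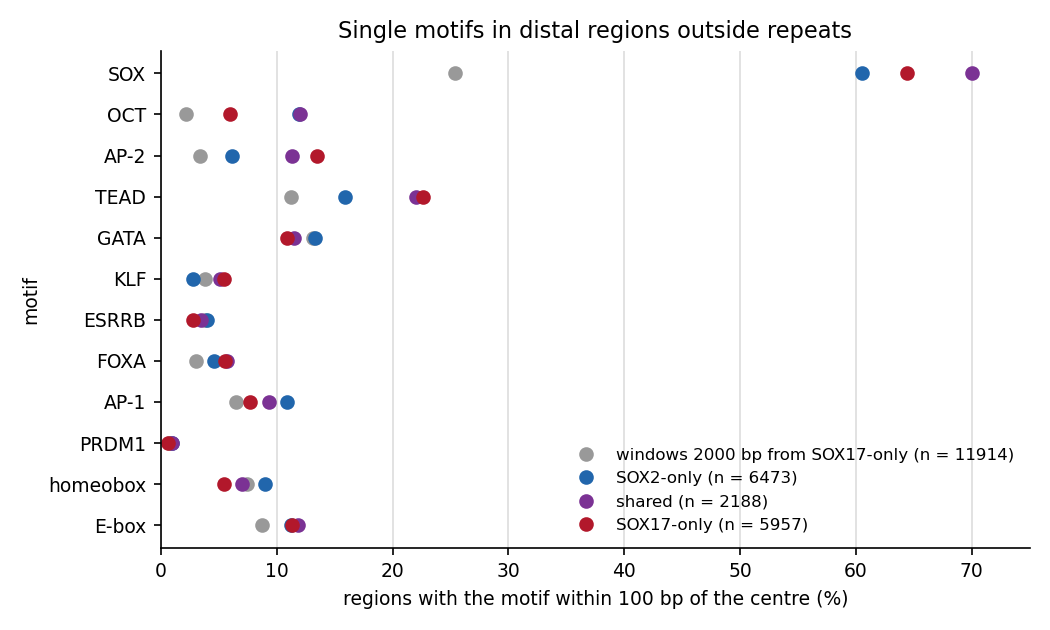
Share of regions (%, x axis) with each of 12 motifs (y axis) within 100 bp of the peak centre, for SOX17-only, shared and SOX2-only distal regions outside repeats and for windows 2000 bp to either side of the SOX17-only regions. The SOX core is the commonest motif in every class, AP-2 stands at 13.5, 11.3 and 6.12% and OCT at 5.96, 12.0 and 11.9%.

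Motifs did not sit together evenly within the SOX17-only regions. AP-2 sites were present in 2 of the 132 regions with a compressed site (1.52%), in 13.1% of the regions with any SOX core and in 14.2% of those without one. TEAD sites were present in 8.33% of regions with a compressed site, 20.6% with any SOX core and 26.1% without one. GC content moved with this split too, since compressed sites fell from 3.75% of regions in the lowest band of GC to 2.23% in the middle and 1.11% in the highest, and its part in the result was not tested. None of the 12 single motifs was found in 693 regions (11.6%), compared with 38.6% of flanking windows.

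Scores of the SOX17-only regions ran from 7.33 to 269 with a median of 25.0 and quartiles of 17.3 and 39.0. The authors' score has no stated scale and is used within the SOX17 list only. The shared distal regions had a median of 33.7 (quartiles 21.7 and 56.3) and a maximum of 535. Of the SOX17-only regions, 455 (7.64%) were above the 90th percentile of all SOX17 scores, against 15.5% of shared regions. The 132 regions with a compressed site had a median score of 34.3 (19.9 to 58.5), those with a SOX core and no compressed site 25.7 (17.7 to 40.4), and those without a SOX core 23.7 (17 to 36.3). Regions with CATTGTAT and no compressed site, 499 in number, had a median of 31.7 (20 to 59.5), and 18.6% of them were above that percentile. The quartile ranges of these classes overlap widely.

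With the SOX17 list cut into 5 equal bins from the lowest to the highest scores, compressed sites occurred in 16 of 1283, 22 of 1311, 25 of 1257, 26 of 1155 and 43 of 951 SOX17-only regions, which are 1.25, 1.68, 1.99, 2.25 and 4.52%. The Wilson interval of the highest bin, 3.37 to 6.04%, lay above those of the other 4, whose upper bounds reached 3.28%. In the shared regions the 3 lowest bins held none, among 288, 318 and 405 regions, which at 3 counts allows a share of up to 1.04, 0.943 and 0.741% (Wilson upper bounds 1.32, 1.19 and 0.94%). The next bin held 2 of 513 and the highest 1 of 664. Both the score and the choice of regions come from the same experiment, so this is a description.

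**Figure D4:**
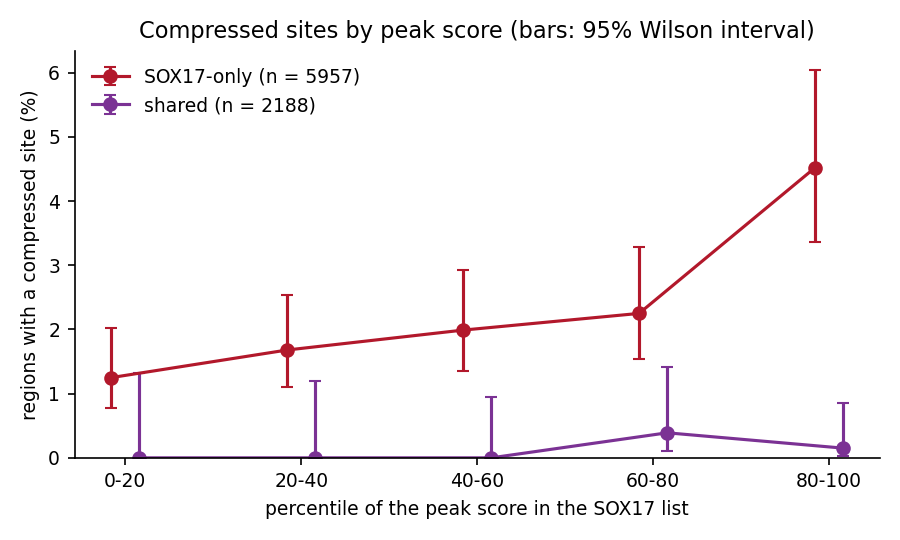
Share of regions with a compressed site (%, y axis, with 95% Wilson intervals) by bin of the peak score in the SOX17 list (x axis, percentile), for SOX17-only and shared distal regions outside repeats. SOX17-only regions go from 1.25% in the lowest to 4.52% in the highest bin, and shared regions stay at or below 0.39%.

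The 10 highest-scoring SOX17-only regions with different nearest genes had scores from 227 to 269. The first lay in intron 1 of COL23A1, a transmembrane collagen gene (chr5:178564450-178564554, score 269, 26053 bp from the TSS), with the nearest SOX2 peak at 8370 bp. It was followed by regions nearest to ZNF511, which codes for a zinc finger protein, ZFAT-AS1, MIR548AG2, MIR646, DCTD (deoxycytidylate deaminase), RNU105C, BMS1P20, LINC01696 and ST3GAL1 (a sialyltransferase). Of the 10 regions, 6 held a SOX core within 100 bp of the centre and 1, that of RNU105C, a compressed site. For COL23A1 and MIR548AG2 that core lay outside the peak interval itself. Many of these nearest genes are non-coding RNAs or pseudogenes far from the peak: the MIR548AG2 region lies at 154726 bp and the ZFAT-AS1 region at -212641 bp from the TSS, negative distances being upstream. Of all SOX17-only regions, 4018 (67.5%) had a protein-coding and 1778 (29.8%) a non-coding RNA gene as the nearest gene.

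By score, the 10 leading regions with a compressed site were nearest to RNU105C (score 229), MIR3139 (208), LINC00208 (195), LOC102724532 (179), ITPRIP (160), BAMBI (144), PER4 (140), PIN1P1 (129), LRRC4C (128) and ARHGAP42 (128). The BAMBI region, printed above, lies 13000 bp downstream of the TSS of BAMBI, a decoy receptor that blocks BMP and activin signalling. The ITPRIP region lies in intron 1 at 1437 bp from the TSS, close to the gene for a protein that interacts with the inositol trisphosphate receptor. The 5 leading regions with a canonical site were nearest to KCNK12, LMX1A, NPIPA7, LINC01915 and FAR1, with a median score over all 6 canonical regions of 11.8. Regions with a compressed site had 131 nearest genes, 40.2% of them were intergenic, and 59.1% lay within 50000 bp of the TSS.

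Location was close to that of the shared regions. Of the SOX17-only regions 2692 (45.2%) were intergenic and 3265 intronic, against 48.0% intergenic in shared regions (odds ratio 0.892, 0.809 to 0.984; Fisher's exact test, adjusted p = 0.045 over 2 tests). This call was lost at each of the other distances to SOX2 that were tried, with adjusted p from 0.0579 to 0.0944. Within 50000 bp of the TSS lay 57.6%, against 58.5% (odds ratio 0.966, 0.875 to 1.07; exact test, adjusted p = 0.51). The median distance to the TSS was 38579 bp, and 42.6% of regions lay upstream. Of the intronic regions, 1096 (33.6%) were in intron 1. The name distal holds for nearly all members, yet 92 (1.54%) lay within 1000 bp and 1129 (19.0%) within 10000 bp of a TSS, and 77 were annotated as CpG island.

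Distances to the nearest SOX2 peak were counted with no background of random positions, so they are a description only. A SOX2 peak lay within 10000 bp of 509 regions (8.54%), within 50000 bp of 2959 (49.7%) and within 100000 bp of 4344 (72.9%), at a median distance of 50637 bp. The 5957 regions had 4451 nearest genes, of which 2692 (60.5%) were also nearest to a SOX2 peak. The share of all RefSeq genes nearest to any SOX2 peak was not counted, so this share has no base beside it. The regions just inside the limit of 5000 bp were those near SOX14, at 5002 bp from a SOX2 peak with a score of 16.33, near LINC01170 at 5006 bp with 67.0 and near KAZN-AS1 at 5035 bp with 35.33. Just outside were peaks near DAZAP2 at 4976 bp with 27.0, MIR512-2 at 4954 bp with 45.33 and HECW1 at 4924 bp with 16.67. On the short arm of chromosome 12, 78 regions had a median score of 41.0, against 25.0 elsewhere, and on chromosome 20, 164 regions had 32.3. On chromosome 8 the median was 29.3, against 24.7 elsewhere. Shared regions were also higher on 12p (57 against 33.3 elsewhere) and chromosome 20 (55.7 against 33). The rise is thus not particular to SOX17-only regions, and scores on these chromosomes are to be read with it.

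Some genes gathered several regions. At least 2 were nearest to 1025 genes (23%), at least 3 to 314 and at least 5 to 39. RBFOX1, a splicing regulator with a very long gene, had 9, spread over 1110915 bp, between 13 SOX2 peaks. EFNA5 (an ephrin guidance ligand), FRMD4A, LINC01387 and SDK1 (an adhesion protein) had 7 each. The 7 regions of LINC01387 lay within 97275 bp, beside 2 SOX2 peaks. Of 7 genes with 6 regions, NPAS3, a transcription factor gene, had 8 SOX17 peaks in all and 1 SOX2 peak, and the adaptor gene APBB2 had 10 and 2. EBF2, a further transcription factor gene, had all of its 6 SOX17 peaks among the SOX17-only distal regions and 2 SOX2 peaks. ETV1, an ETS factor gene downstream of FGF signalling, had 6 of 6 and 5 SOX2 peaks. Long gene loci collect more peaks of any kind, and such counts were not adjusted for locus size.

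Germ cell genes had between 0 and 4 regions each. Of 22 genes singled out by name for their roles in germ cells, pluripotency and endoderm, 11 were nearest to at least 1 region. Of all RefSeq genes, 4433 of 29978 (14.8%) were. Lists of other developmental genes, given below, also stood above that share, so the count is not particular to germ cell genes. DMRT1, a DM-domain factor of the testis and germ line, had 4, which were all of its SOX17 peaks, beside 1 SOX2 peak. The scores of these 4 were 154 in intron 2 (40882 bp from the TSS, printed above), 28.0 just upstream at -1240 bp, 25.0 at -36325 bp and 18.67 at 46603 bp, so 1 was high in the list (percentile 98.7) and 3 were in its middle or lower part. None held a compressed site.

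TFAP2C, the AP-2 factor that acts with SOX17 in primordial germ cell specification, had 3 regions among 5 SOX17 peaks, with 6 SOX2 peaks at the same gene. Their scores were 145.33 at 74173 bp downstream, 97.33 at -19773 bp and 33.0 at 124640 bp, with SOX2 peaks between 13252 and 29788 bp away. KIT, the stem cell factor receptor of germ cells, had 1 region in intron 1 with a score of 147 (percentile 98.4). It had 2 SOX17 peaks in all and 2 SOX2 peaks. CXCR4, the chemokine receptor that guides migrating germ cells, had 2 intergenic regions, with scores of 115.33 and 51.33, at -61060 and -50596 bp from the TSS. Their nearest SOX2 peaks were 144068 and 142958 bp away. CXCR4 had 6 SOX17 peaks in all, and 2 SOX2 peaks were assigned to it.

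PRDM1, a repressor of the somatic program in germ cells, had 2 of its 8 SOX17 peaks here, with scores of 36.0 and 18.0, and 6 SOX2 peaks. SOX17 itself had its 1 peak here, at -56899 bp from the TSS, with a score of 32.0, and 1 SOX2 peak. NANOS3, an RNA-binding protein gene for germ cell survival, had 1 region in an intron at 284 bp from the TSS with a score of 17.67 and no SOX2 peak. KLF4, a pluripotency factor gene, had 1 region, which holds the compressed site printed above, at -165238 bp from the TSS with a score of 36.0. It had 6 SOX17 peaks in all and 9 SOX2 peaks. PRDM14, GATA4 and GATA6 had 1, 2 and 1, the highest being a PRDM14 region of score 90 and a GATA4 region of score 87.67. In all, PRDM14 had 5 SOX17 and 7 SOX2 peaks, GATA4 2 and 0, and GATA6 4 and 3. NANOG, POU5F1, DND1, DPPA3, PDPN, SOX2, SOX15, TFCP2L1, UTF1, FOXA2 and LIN28A had none. Some of these, such as TFCP2L1 with 5 SOX17 peaks, were bound by SOX17 outside these regions.

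Over gene lists, which were chosen with earlier results of these data known, the base share is 14.8%: 4433 of 29978 RefSeq genes were nearest to at least 1 SOX17-only distal region. Of 30 primordial germ cell and seminoma genes 13 (43.3%) were, of 30 endoderm genes 15 (50%) and of 30 pluripotency genes 8 (26.7%). The shared distal regions reached 26.7, 13.3 and 40% of these lists, and the SOX2-only regions 26.7, 33.3 and 53.3%, where their own shares of all RefSeq genes were 6.35 and 15.2%. The classes differ in these base shares, so the percentages of a list cannot be ranked between them. Lists of developmental and signalling genes stood at similar levels: 48.3% of WNT (14 of 29), 40% of BMP and Nodal (12 of 30), 43.3% of FGF and MAPK (13 of 30) and 50% of adhesion and guidance genes (15 of 30). Lists of other tissues stood at 26.7% of neuroectoderm, 30.0% of muscle and 20% of haematopoietic genes, and housekeeping genes were near the base share with 4 of 28 (14.3%). Chromatin genes stood at 35.7% and SOX genes at 30.0%. All lists but the housekeeping list were above the base share, which did not hold under every alternative: within 50000 bp of the TSS the SOX list fell to 10%, endoderm to 23.3% and pluripotency to 13.3%, housekeeping stood at 10.7%, and the base share was 10.1%. These counts describe proximity only, and neither the lists nor the base share were adjusted for locus size.

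**Figure D5:**
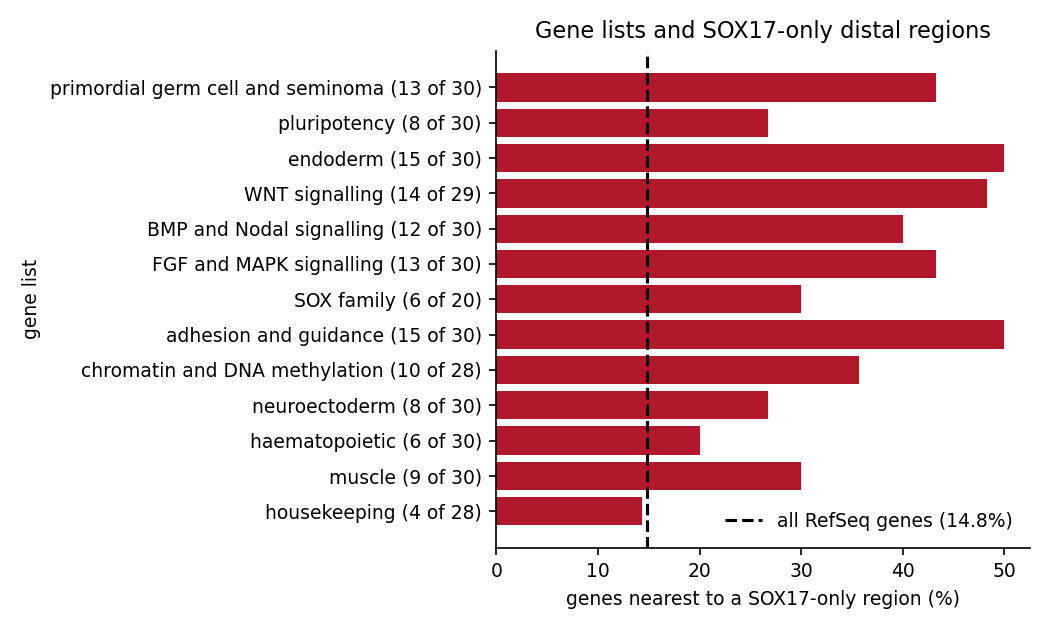
Share of the genes in each list (%, x axis, with counts) that are nearest to at least 1 SOX17-only distal region, for 13 gene lists (y axis), with the share of all RefSeq genes, 14.8%, as a dashed line. Endoderm and adhesion genes reach 50% and housekeeping genes 14.3%.

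Of the 4433 genes nearest to a SOX17-only region, 1753 (39.5%) had no SOX2 peak assigned in 2102EP. Among the 15 endoderm genes the share was close to that, with 6 (40%): the pioneer factor FOXA1, GATA4, the organiser factor GSC, the SOXF gene SOX7, and the basement membrane collagens COL4A1 and COL4A2. Their best SOX17-only regions had scores of 14.3, 87.7, 71.0, 22.0, 64.0 and 15.7. Among the 13 germ cell genes, 4 (30.8%, below the share of all genes) had no SOX2 peak: NANOS3, the surface enzyme CD38 (score 43.0), RASGRF1 (22.0) and TCL1B (45.7). ALPL, the alkaline phosphatase used to stain germ cells, had 2 regions with a best score of 92.3 and 1 SOX2 peak. In the pluripotency list the regions of the telomere protein gene TERF1 (94.0) and of PRDM14 scored highest. Both were annotated in introns, at -93492 and -57058 bp from the TSS of these genes. ESRRB and TRIM71 each had 1 region of score 29.0 beside 4 and 7 SOX2 peaks.

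Signalling genes included ligands, receptors and inhibitors. In the WNT pathway the agonist RSPO3 had 2 regions, 1 with a compressed site in intron 4 (score 106), the secreted inhibitor SFRP2 1 (72.3), and the receptor FZD1 3 (best 58.0). The nuclear factors TCF7L1, TCF7, TCF7L2 and LEF1 had 1 each, with scores from 11 to 50.7, and the feedback gene AXIN2 had 3 (best 23). In the BMP pathway the ligands BMP2, BMP4 and BMP7 had 1 region each with scores from 13 to 40. The receptor BMPR1B had 5 regions among 7 SOX17 peaks and no SOX2 peak, with a best score of 102, and 1 of the 5, of score 15.33, held a compressed site. The inhibitors BAMBI and NOG had 2 each, with best scores of 144 and 18.7. In the FGF pathway FGF13 had 3 regions (best 147), the receptor FGFR2 4 (best 70.3), the phosphatase DUSP6 2 (best 36.0) and the inhibitor SPRED2 1 (95.7). Compressed sites near genes of these lists were found at BAMBI, BMPR1B, RSPO3, ETV1, KLF4 and PLXNA2. All genes named in this paragraph except BMPR1B and NOG had at least 1 SOX2 peak, for example 6 at FGF13 and 5 at FGFR2.

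In the guidance list the ephrin receptor EPHB1 had 4 regions, with a best score of 211, and the laminin receptor ITGA6 had 4, which were all of its SOX17 peaks, with a best score of 134. The endothelial cadherin CDH5 had 4 (best 90.3) and the plexin PLXNA2 6 (best 44.3). In other lists, the SOX gene SOX5 had 1 region on 12p (127), the nuclear receptor NR2F2 had 6 (best 137), the stem cell antigen CD34 2 (best 130), the muscle gene DMD 5 (best 159), the demethylases KDM4C 4 (best 82.3) and KDM2B 2 (best 74.7), and the importin gene IPO8 2 (best 64.0). Every list except housekeeping had at least 1 region above the 90th percentile of SOX17 scores. Of all SOX17-only regions 7.64% were above it, so this sets no list apart. In the haematopoietic list only CD34 reached it, by a region at -129782 bp from the TSS, and BCL11B came next at percentile 75.2. All genes named in this paragraph had SOX2 peaks too, from 1 at CD34 to 9 at SOX5, DMD and KDM4C.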

How the data were processed

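SOX17 was precipitated from TCam-2 and SOX2 from 2102EP, with 3 libraries each and 3 input libraries per line. The series' design text names CLC Genomics Workbench 12 for the mapping of the 75 bp single-end reads to hg38, and HOMER for the analysis. HOMER also stands in the submitters' processing notes. How peaks were called, whether input was used and what a number at the end of each peak name means was not given in the sources used here. Each factor has 1 list from the authors, a merged peak list, with a deposited score per peak whose scale is not stated and positions and distances to the TSS in bp. In each list 2 lines had been emptied for this work. Of 5293 SOX17-only regions whose gene was found in GENCODE 44, 97.4% had a deposited distance within 1000 bp of that to a TSS of the same gene on hg38.

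A SOX2 peak at more than 5000 bp counted as absent, and shared regions overlapped by at least 1 bp. Motifs were searched with Python 3.11.15 in both orientations up to 100 bp from each peak centre. Motifs of a pair can overlap, and OCT letters inside a composite site also count as an OCT site. Shares were compared by two-sided Fisher's exact tests (SciPy 1.17.1) with Benjamini-Hochberg adjustment over 23 tests per comparison (2 for location) at 0.05. A count of 0 entered an odds ratio as 3 counts. Intervals are 95% Wilson for shares and Woolf for odds ratios. Flanking windows lay 2000 bp to either side and were not filtered for repeats, and promoter sequences are those of RefSeq. Peaks count as independent although some share sequence, so p-values are approximate. Percentiles are ranks of the score within the SOX17 list. Steps were tested on simulated data.

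Named genes were those nearest to the 10 highest scores, up to 4 per gene list, the 10 with most regions, the leading regions with a compressed (10) or canonical (5) site, 22 genes given by name and the regions next to the distance limit. Further list genes (by role), the short sequences after the SOX core and the site shift were chosen after their values were seen. The members and lists were chosen with earlier results of these data known. Alternatives were other distances to SOX2 (0, 1000 and 20000 bp) and to the TSS, the peaks above the median score of each list, a window of 50 bp, other mismatches, and leaving out 12p and chromosome 20.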

Additional observations from a re-analysis of the deposited data

How the results depend on the processing

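The excess of compressed and the deficit of canonical sites in SOX17-only regions kept their direction and passed the test in both comparisons under all alternatives run, as did the differences in OCT sites. With other distance limits the number of SOX17-only regions ran from 4597 to 6470, and 2753 of the 5957 lay above the median score. Over the alternatives 5 to 7 tests passed against the shared and 11 to 14 against the SOX2-only regions. The call of a lower intergenic share was lost when peaks without overlap counted as SOX17-only (odds ratio 0.906) and with limits of 1000 bp (0.9) and 20000 bp (0.892) to SOX2. The share of all RefSeq genes nearest to a region fell to 7.66% among peaks above the median score and to 10.1% within 50000 bp of the TSS. Odds ratios that crossed 1, none of them called, were KLF against shared regions at 0.993 above the median score and 0.984 within 100000 bp of the TSS, ESRRB at 1.1 above the median score, forkhead at 1.02 with a window of 50 bp and 1.03 within 100000 bp, and E-box at 1.09 above the median score and 1.01 with 50 bp. Against SOX2-only regions the E-box gave 0.995 with no overlap and 0.987 without 12p and chromosome 20. Against shared regions, the AP-2 call was lost at 20000 bp (odds ratio 1.2), above the median score (1.08) and with 50 bp (1.24), and the homeobox call under 3 alternatives; AP-1 passed at 0 and 1000 bp (adjusted p of 0.0272 and 0.0462, Fisher's exact test). Causes were not tested. Of 289 comparisons with the reported values, 238 kept their call or size. No paired analysis was possible because single libraries have no values in the deposited lists, and leaving out each replicate was not run for the same reason. Depth is unknown, so weak sites that were not called in either list cannot be seen, and an absent SOX2 peak is not absent binding.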
